A study of Rattus norvegicus with 9 samples.

Results

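The genes described here mark the endothelium, the single layer of cells that lines blood vessels, and include the receptors through which vessels sense vascular endothelial growth factor (VEGF). They are Pecam1, Kdr, Flt1, Tek, Tie1, Vwf, Sox17, Eng, Emcn and Egfl7. Every probe set whose only gene symbol is one of these was taken, which gave 10 genes and 16 probe sets out of 14217 genes and 31042 probe sets tested. Their transcripts were quantified on 9 Affymetrix arrays of tongue tissue from male Sprague-Dawley rats, with 3 arrays for each of 3 groups. Rats of the normal group were given distilled water only. The 4NQO group drank 0.002% 4-nitroquinoline oxide, a DNA-damaging carcinogen that produces dysplasia and then squamous carcinoma in the tongue. The IL-1Ra group received 4NQO and the interleukin-1 receptor antagonist, a protein that blocks the IL-1 receptor. By the study's methods, rats drank 4NQO for 14 weeks and were then split at random into the 4NQO and IL-1Ra groups. IL-1Ra was then injected under the tongue mucosa each week up to week 22, and the 4NQO group received saline in its place. Chloral hydrate anaesthesia is described for these injections, and no injection is described for the normal group. Differences of 4NQO or IL-1Ra from normal tongue therefore include any effect of injection and anaesthesia, which was not tested. The killing of all rats is placed at the close of week 22 by the methods. For rats on 4NQO the labels place it between week 14 and week 22 instead. According to the methods, tongues were divided lengthwise, with a side used for histology and the other frozen for later work. In the study's results, 9 tongue tissues were picked at random for the arrays, 3 from each group. The lesion stage of each arrayed tongue was stated in neither the labels nor the methods. The labels do not say in words that each sample was a separate animal, so p-values measure the spread between these samples.

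VEGF is released by epithelial, immune and stromal cells that are short of oxygen. It binds KDR (VEGF receptor 2), the main signalling receptor that makes endothelial cells divide and migrate, and FLT1 (VEGF receptor 1), which binds VEGF more tightly but signals weakly and acts largely as a trap. The angiopoietin receptor TEK (TIE2) and its partner TIE1 govern how stable and how leaky the vessel wall is. The tongue has a dense capillary network in its muscle and in the connective tissue papillae under the epithelium, and growth of new vessels is a known feature of dysplastic and malignant squamous epithelium.

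The upstream sequence of the 2 VEGF receptor genes is shown beside that of Egfl7, the gene of the group that differed least between 4NQO and normal tongue, because ETS transcription factors are known regulators of endothelial genes. The sequences are the 250 bases before the annotated start, 5′ to 3′ on the strand of the gene, from RefSeq promoters of rat build GRCr8, and the capitals mark GGAAG, a core of ETS binding motifs, on either strand.
Kdr: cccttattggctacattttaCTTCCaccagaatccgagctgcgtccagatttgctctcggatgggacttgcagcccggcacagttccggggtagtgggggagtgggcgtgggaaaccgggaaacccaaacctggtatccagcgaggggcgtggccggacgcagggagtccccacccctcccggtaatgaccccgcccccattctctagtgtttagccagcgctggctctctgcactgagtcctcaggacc
Flt1: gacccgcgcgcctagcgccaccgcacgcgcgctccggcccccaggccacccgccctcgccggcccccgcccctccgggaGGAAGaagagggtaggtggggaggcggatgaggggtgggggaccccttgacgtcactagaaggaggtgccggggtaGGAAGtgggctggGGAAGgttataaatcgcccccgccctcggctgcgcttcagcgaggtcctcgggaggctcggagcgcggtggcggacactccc
Egfl7: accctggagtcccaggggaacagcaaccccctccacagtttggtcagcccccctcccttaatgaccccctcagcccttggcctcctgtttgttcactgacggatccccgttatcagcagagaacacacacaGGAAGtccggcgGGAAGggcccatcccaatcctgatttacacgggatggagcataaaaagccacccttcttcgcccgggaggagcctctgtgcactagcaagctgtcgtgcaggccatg
The Kdr window lies at chr14:32571813-32572062, that of Flt1 at chr12:12333180-12333429 and that of Egfl7 at chr3:29805381-29805630, all on the plus strand. GGAAG occurred 1 time in the Kdr window, 3 times in that of Flt1 and 2 times in that of Egfl7. It occurred 3 times upstream of Tie1 and 2 times upstream of Eng and of Emcn, and 0 times in a second Egfl7 window at chr3:29808051-29808300. Of 33469 promoters of the same length, 63.3% held the motif, so its presence alone does not set these genes apart. At least 2 matches occurred in 29.2% of them, and whether these genes hold more matches than other promoters was not tested. A SOX core, AACAAT on either strand, was found in 1 of these 7 windows, that of Emcn, and in 10.3% of all promoters. The table held a window for 6 of the 10 genes, and Pecam1, Tek, Vwf and Sox17 had no entry.

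In the 4NQO arrays, 5 of the 10 genes were higher than in normal tongue and 0 were lower. Those that rose were Vwf, the clotting protein von Willebrand factor (2.08-fold), Sox17, a transcription factor of arterial endothelium (1.79-fold), Flt1 (1.78-fold), Pecam1, the junction protein CD31 (1.75-fold), and Kdr (1.69-fold). Over all genes tested, 12.4% were called higher and 5.08% lower in this comparison. All 10 genes had their highest group mean in the 4NQO arrays, although Egfl7 had not after the arrays were scaled anew. With IL-1Ra, the estimates of all 10 genes lay below the 4NQO group but 0 were called lower, where 0.753% of all genes were called lower and 1.91% higher. A call is an adjusted p below 0.05 from limma, a linear model fitted across all probe sets, and a gene is represented by its probe set of highest mean. Levels are log2 of the deposited intensity, and levels of different probe sets cannot be compared with each other. In whole tissue, a change in the share of endothelial cells and a change in RNA per endothelial cell cannot be told apart. This holds for a rise and for a fall.

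**Figure D1:**
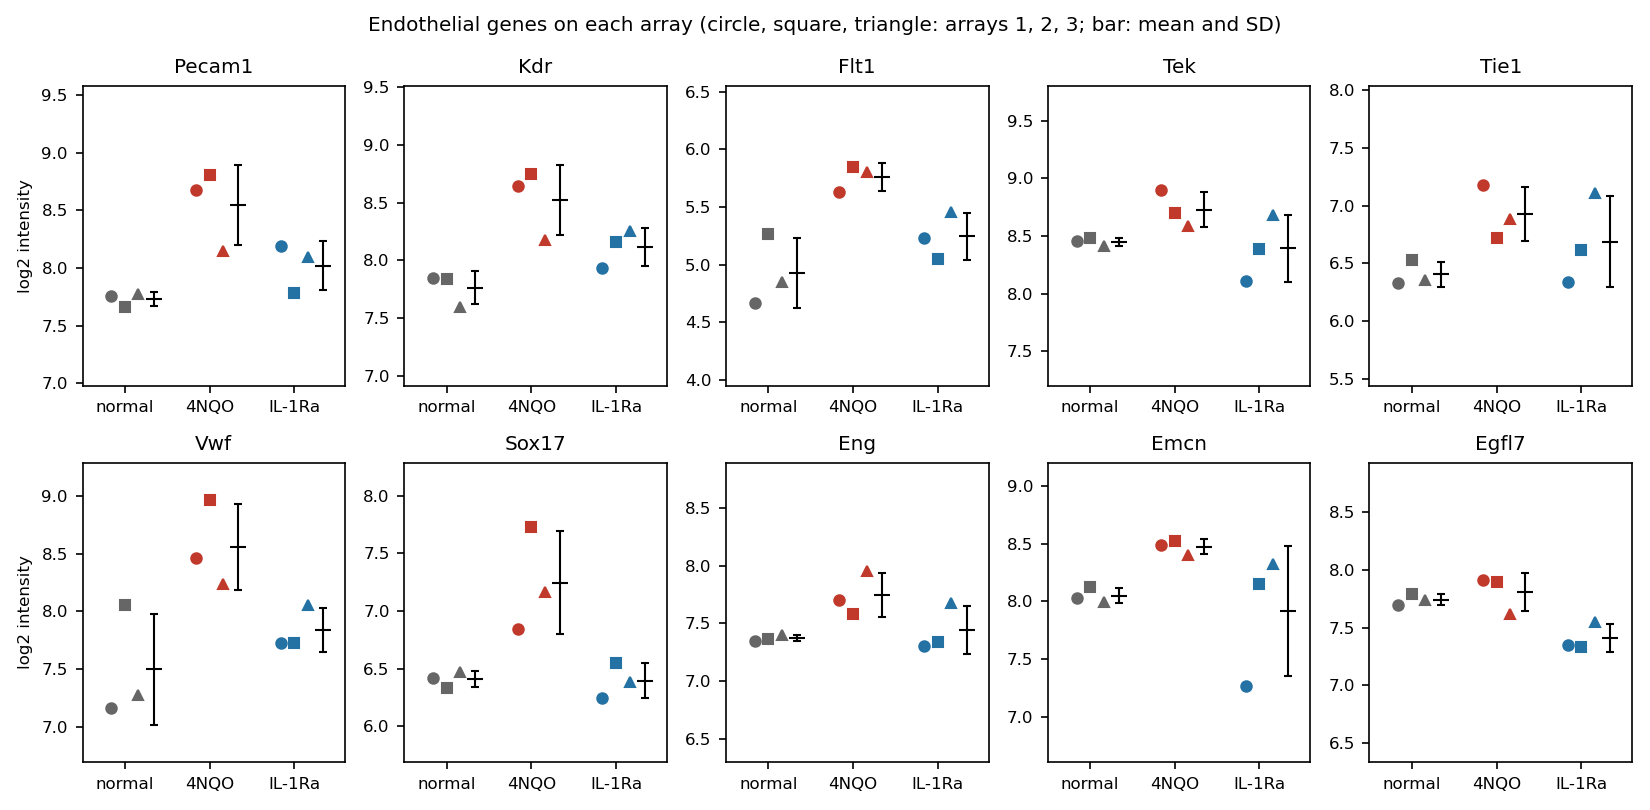
Log2 intensity (vertical axis, own range in each panel, all of equal height) of the 10 endothelial genes on each array of the normal, 4NQO and IL-1Ra groups. Points are single arrays and the bar beside them is the mean with its SD (n = 3). The 4NQO points lie above all normal points for 9 genes, and for Egfl7 they overlap.

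Kdr, read by its brighter probe set 1367948_a_at, measured 7.85, 7.84 and 7.60 log2 on normal arrays 1 to 3. It measured 8.64, 8.75 and 8.18 on the 4NQO arrays and 7.93, 8.16 and 8.26 on the IL-1Ra arrays. The 4NQO arrays lay above all normal arrays, and 4NQO array 3 was below IL-1Ra array 3. Kdr was 0.76 log2 higher in 4NQO than in normal tongue (95% confidence interval 0.40 to 1.12, limma adjusted p = 0.0173). This call was lost without normal array 3 (0.68 log2, limma adjusted p = 0.0763) and when the arrays were scaled anew by quantiles (0.58, adjusted p = 0.0502) or by cyclic loess (0.55, adjusted p = 0.0563). With IL-1Ra, Kdr was at -0.41 log2 relative to 4NQO (-0.77 to -0.04, limma adjusted p = 0.214), and without 4NQO array 3 it was called lower (-0.58, limma adjusted p = 0.0367). A second probe set, 1397868_at, was dim on all arrays, below the lower quartile of its array on 3 of 9, and differed by -0.09 log2 between 4NQO and normal tongue (limma adjusted p = 0.659).

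Flt1 was read by 3 probe sets, and all of them were called higher in 4NQO. On the brightest, 1377113_at, the normal arrays gave 4.67, 5.27 and 4.85 log2. The 4NQO arrays gave 5.63, 5.85 and 5.80, and the IL-1Ra arrays 5.23, 5.05 and 5.46. Each 4NQO array thus lay above every array of both other groups. The difference from normal tongue was 0.83 log2 (0.46 to 1.20, limma adjusted p = 0.0138), and it was 0.84 on 1370492_a_at (limma adjusted p = 0.00967) and 0.62 on 1369087_at (limma adjusted p = 0.0325). Under quantile scaling and cyclic loess the call of 1377113_at held, and among the fits without 1 array it was lost without normal array 3 (0.79, limma adjusted p = 0.0628). The call of 1369087_at was less stable, being lost in the fit of the 6 compared arrays alone and without any 1 of the normal arrays, 4NQO array 1 or 4NQO array 2, in the latter cases with adjusted p from 0.0690 without 4NQO array 2 to 0.119 without normal array 3. On all 3 probe sets the IL-1Ra arrays lay below all 4NQO arrays, by 0.47 to 0.51 log2 on average, with limma adjusted p between 0.129 and 0.134. Without 4NQO array 3 the fall of 1369087_at was called (-0.67, limma adjusted p = 0.0229), as was that of Flt1 when its probe sets were averaged before the fit.

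The TIE receptors had smaller estimates than the VEGF receptors, a difference between genes that was not tested, and neither was called. Tek had 8.45, 8.48 and 8.41 log2 on the normal arrays, 8.90, 8.70 and 8.59 on the 4NQO arrays and 8.11, 8.38 and 8.68 on the IL-1Ra arrays. Its normal arrays were close together and all below the 4NQO arrays, while the IL-1Ra arrays spanned both groups. The difference of Tek between 4NQO and normal tongue was 0.28 log2 (-0.05 to 0.61, limma adjusted p = 0.219). Tie1 had 6.33, 6.53 and 6.36 on the normal arrays, 7.18, 6.72 and 6.89 on the 4NQO arrays and 6.33, 6.62 and 7.11 on the IL-1Ra arrays. Every 4NQO array of Tie1 was above every normal array, with a difference of 0.52 log2 (0.09 to 0.95, limma adjusted p = 0.0921). Tie1 passed the threshold with array weights (0.62, limma adjusted p = 0.0391) and without IL-1Ra array 3 (0.52, adjusted p = 0.0450). Against 4NQO, IL-1Ra gave -0.34 log2 for Tek (limma adjusted p = 0.256) and -0.24 for Tie1 (limma adjusted p = 0.542).

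Pecam1 encodes a homophilic adhesion molecule at the contacts between endothelial cells, which is also carried by platelets and some leukocytes. It stood at 7.76, 7.67 and 7.78 log2 on the normal arrays, at 8.68, 8.80 and 8.15 on the 4NQO arrays and at 8.19, 7.78 and 8.10 on the IL-1Ra arrays. The 4NQO and IL-1Ra arrays all lay above the normal arrays, and IL-1Ra array 1 was slightly above 4NQO array 3. Pecam1 was 0.81 log2 higher in 4NQO than in normal tongue (0.42 to 1.20, limma adjusted p = 0.0175). The difference stayed between 0.78 and 0.83 log2 when normal array 1, 2 or 3 was left out, but the limma adjusted p then rose to 0.0513, 0.0628 and 0.0644. Quantile scaling gave 0.63 (limma adjusted p = 0.0573) and cyclic loess 0.60 (0.0616). With IL-1Ra it was at -0.52 relative to 4NQO (-0.91 to -0.13, limma adjusted p = 0.144), and without 4NQO array 3 at -0.72 (limma adjusted p = 0.0194).

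Vwf encodes a glycoprotein that endothelial cells store in Weibel-Palade bodies and that tethers platelets to injured vessels. Its levels were 7.16, 8.05 and 7.28 log2 on the normal arrays, 8.46, 8.97 and 8.24 on the 4NQO arrays and 7.72, 7.72 and 8.05 on the IL-1Ra arrays. Normal array 2 stood apart from the other normal arrays, and still lay below each 4NQO array. The difference between 4NQO and normal tongue, 1.06 log2 (0.50 to 1.61, limma adjusted p = 0.0231), was the largest estimate among the 10 genes. Without normal array 1 it was 0.89 (limma adjusted p = 0.0776), without normal array 3 it was 0.95 (0.0942) and without 4NQO array 2 it was 0.86 (0.0534). The call was also lost after quantile scaling (0.88, limma adjusted p = 0.0549) and cyclic loess (0.84, adjusted p = 0.0624). All IL-1Ra arrays of Vwf lay below all 4NQO arrays, at -0.72 log2 (-1.28 to -0.17, limma adjusted p = 0.155).

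Sox17 encodes a transcription factor needed for arterial identity of endothelial cells. The bright probe set 1392990_at had 6.42, 6.34 and 6.47 log2 on the normal arrays, 6.85, 7.73 and 7.16 on the 4NQO arrays and 6.25, 6.55 and 6.39 on the IL-1Ra arrays. The normal and IL-1Ra arrays shared 1 range and all 4NQO arrays were above it. Sox17 was 0.84 log2 higher in 4NQO than in normal tongue (0.40 to 1.27, limma adjusted p = 0.0226), and the IL-1Ra group was at -0.85 relative to 4NQO (-1.29 to -0.42, limma adjusted p = 0.0559). Against normal tongue the IL-1Ra group differed by -0.01 log2, with an interval from -0.45 to 0.42. The rise in 4NQO missed the threshold without normal array 1 (0.84, limma adjusted p = 0.0634), 2 (0.80, adjusted p = 0.0755) or 3 (0.87, adjusted p = 0.0741), after quantile scaling (0.65, adjusted p = 0.0696) and after cyclic loess (0.65, adjusted p = 0.0685). The lower level with IL-1Ra passed it without 4NQO array 1 (-1.05, limma adjusted p = 0.0227) or 3 (-0.89, adjusted p = 0.0466) and with the dimmest 40% of probe sets left out (-0.85, adjusted p = 0.0464). The other probe sets of Sox17, 1390041_at and 1378935_at, were dim, the second of them below the lower quartile on 7 of 9 arrays, and were not called in any of the 3 comparisons, though without 4NQO array 3 the level of 1390041_at was called lower with IL-1Ra than in 4NQO (-0.62, limma adjusted p = 0.0306).

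Eng encodes endoglin, a co-receptor of the ALK1 receptor for BMP9. Its arrays read 7.35, 7.36 and 7.40 log2 in normal tongue, 7.70, 7.58 and 7.96 in 4NQO and 7.30, 7.34 and 7.68 with IL-1Ra. The 4NQO arrays were all above the normal arrays, and IL-1Ra array 3 fell among them. The difference from normal tongue was 0.37 log2 (0.07 to 0.68, limma adjusted p = 0.0888), and IL-1Ra against 4NQO gave -0.31 (limma adjusted p = 0.259).

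Emcn encodes endomucin, a sialomucin of venous and capillary endothelium. It read 8.03, 8.12 and 7.99 log2 in normal tongue, 8.49, 8.53 and 8.40 in 4NQO and 7.27, 8.15 and 8.33 with IL-1Ra. The 4NQO arrays lay above all others, and IL-1Ra array 1 was lower than every other array. The difference from normal tongue was 0.42 log2 (-0.08 to 0.93, limma adjusted p = 0.220), and it passed the threshold without IL-1Ra array 1 (0.42, limma adjusted p = 0.0334) and with the 6 compared arrays alone (0.42, adjusted p = 0.0426), both of which remove that array from the shared estimate of the spread. IL-1Ra against 4NQO gave -0.56 log2 (-1.06 to -0.05, limma adjusted p = 0.220), and -0.24 without IL-1Ra array 1.

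Egfl7 encodes a secreted protein with EGF-like domains that endothelial cells lay down around growing vessels, and it was the only 1 of the 10 genes whose normal and 4NQO arrays overlapped. On probe set 1370402_at it read 7.70, 7.79 and 7.74 log2 in normal tongue, 7.92, 7.90 and 7.62 in 4NQO and 7.35, 7.33 and 7.55 with IL-1Ra. The normal and 4NQO arrays overlapped, and all IL-1Ra arrays lay below both. The difference between 4NQO and normal tongue was 0.07 log2 (-0.19 to 0.33, limma adjusted p = 0.719), and its sign turned after quantile scaling (-0.11) and cyclic loess (-0.15). The IL-1Ra group was at -0.40 relative to 4NQO (-0.66 to -0.14, limma adjusted p = 0.107) and at -0.33 relative to normal tongue (-0.59 to -0.07, limma adjusted p = 0.136). Without 4NQO array 3 the level was called lower than in 4NQO (-0.50, limma adjusted p = 0.0306), and with array weights it was called lower than in normal tongue (-0.35, limma adjusted p = 0.0407). The second probe set, 1393427_s_at, gave -0.11, -0.39 and -0.50 log2 for 4NQO against normal, IL-1Ra against 4NQO and IL-1Ra against normal. The last of these had a limma adjusted p of 0.0596, and values from 0.0169 to 0.213 under other settings.

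**Figure D2:**
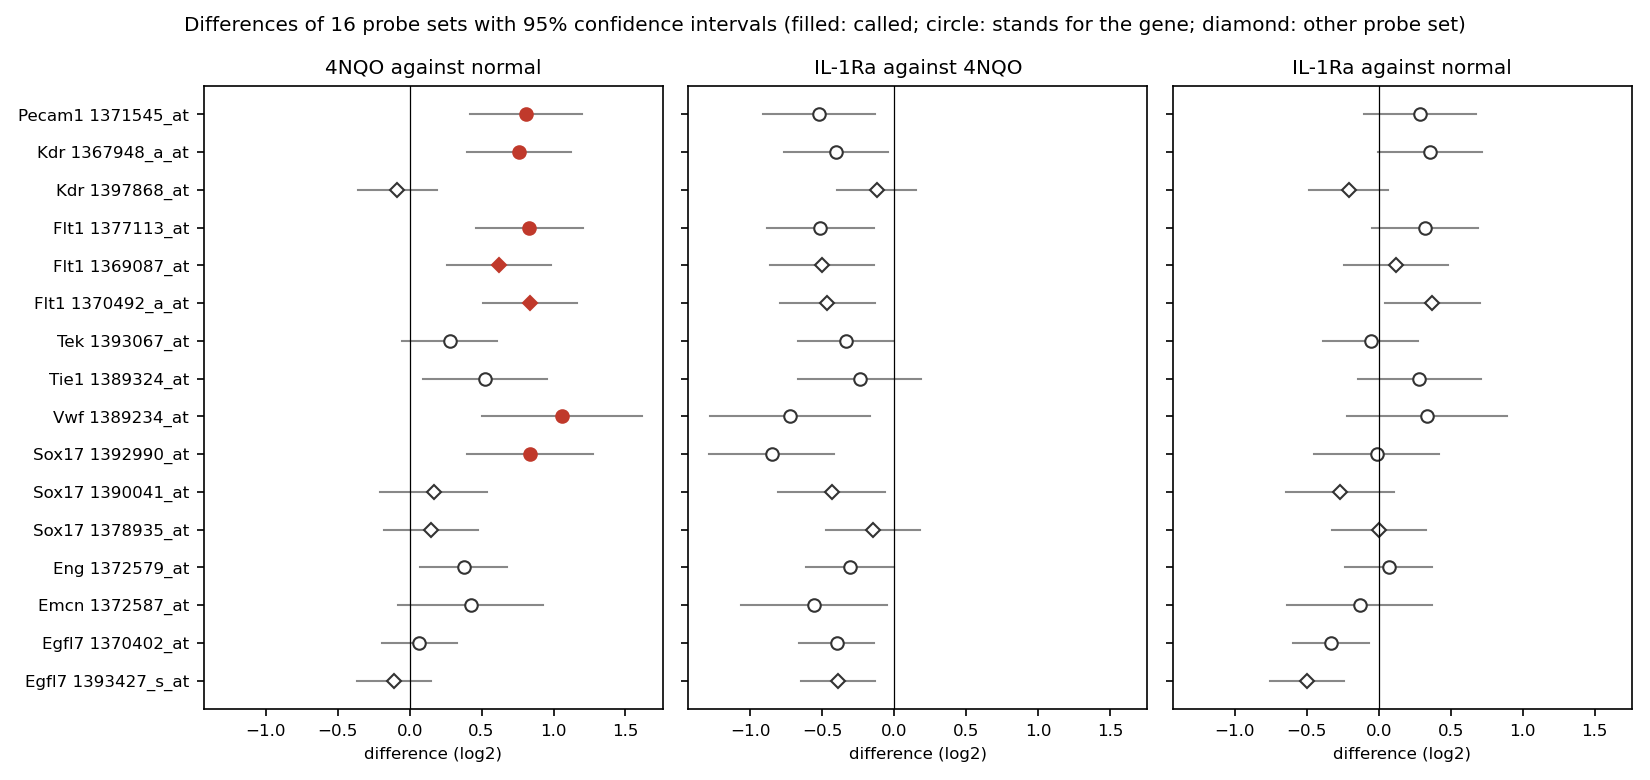
Differences in log2 intensity (horizontal axis) of the 16 probe sets of the 10 genes in each of the 3 comparisons, with 95% confidence intervals from limma. Filled symbols mark an adjusted p below 0.05, circles the probe set that represents a gene and diamonds its other probe sets. In 4NQO against normal, 5 circles and 2 diamonds are filled, all to the right of 0, and no symbol is filled in the other comparisons.

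Over the 10 genes, the median difference of 4NQO against normal was 0.64 log2, beside 0.08 over all genes. All 10 estimates were above 0 as deposited, where 58.0% of all genes were, but that of Egfl7 was below 0 after quantile scaling and cyclic loess. The 4NQO arrays lay above every normal array for 9 of the 10 genes, against 26.5% of all genes. An unadjusted limma p under 0.05 was reached by 7 of the 10, against 36.5% of all genes. Of the 10 genes, 1 (Flt1) was called under quantile scaling and under cyclic loess, where 5.24% and 3.97% of all genes were called higher. Without normal array 3 limma called 0 of the 10, and 851 of 31042 probe sets in place of 4610, with 2.35% of all genes higher. Without normal array 1 it called 2 (Kdr and Flt1), beside 5.4% of all genes, and without normal array 2 it called 3 (Kdr, Flt1 and Vwf), beside 4.21%.

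For IL-1Ra against 4NQO the median of the 10 genes was -0.46 log2, beside -0.04 over all genes. Limma called 0 of them, 9 had an unadjusted p under 0.05 against 21.7% of all genes, and the exception was Tie1. All 10 estimates were below 0, where 56.7% of all genes were. The IL-1Ra arrays lay below every 4NQO array for 5 genes, Flt1, Vwf, Sox17, Emcn and Egfl7, against 13.5% of all genes. The count of calls in this comparison depended strongly on whether 4NQO array 3 was in the fit. Without that array Pecam1, Kdr, Sox17 and Egfl7 were called lower, 4 of the 10, while 4.43% of all genes were. The comparisons share the 4NQO arrays, so a high 4NQO value moves the first up and the second down.

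For IL-1Ra against normal, limma called 0 of the 10 genes, where 1.66% of all genes were called higher and 0.542% lower. The median was 0.18 log2, beside 0.04 over all genes. An unadjusted limma p under 0.05 was reached by 1 gene, Egfl7, against 25.6% of all genes. Of the 10 estimates 6 were above 0, where 56.2% of all genes were. The estimates of Pecam1, Kdr, Flt1, Tie1, Vwf and Eng were above 0, up to 0.35 for Kdr (-0.01 to 0.71, limma adjusted p = 0.229), although that of Eng was below 0 after quantile scaling, cyclic loess and without IL-1Ra array 3. Those of Tek, Sox17, Emcn and Egfl7 were below 0, and of these Tek, Sox17 and Emcn turned above 0 without IL-1Ra array 1, and Sox17 also without normal array 3 and with array weights. The IL-1Ra arrays all lay above the normal arrays for Pecam1 and Kdr, 2 of the 10 against 25.9% of all genes, and all below them for Egfl7, 1 of the 10 against 14.4%. The order of means was 4NQO, IL-1Ra, normal for the 6 genes above 0, and no neighbouring groups in it were called, the calls of Pecam1, Kdr, Flt1 and Vwf being between its ends. For the 4 genes below 0 the order was 4NQO, normal, IL-1Ra, and the call of Sox17 was between its first neighbours.

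**Figure D3:**
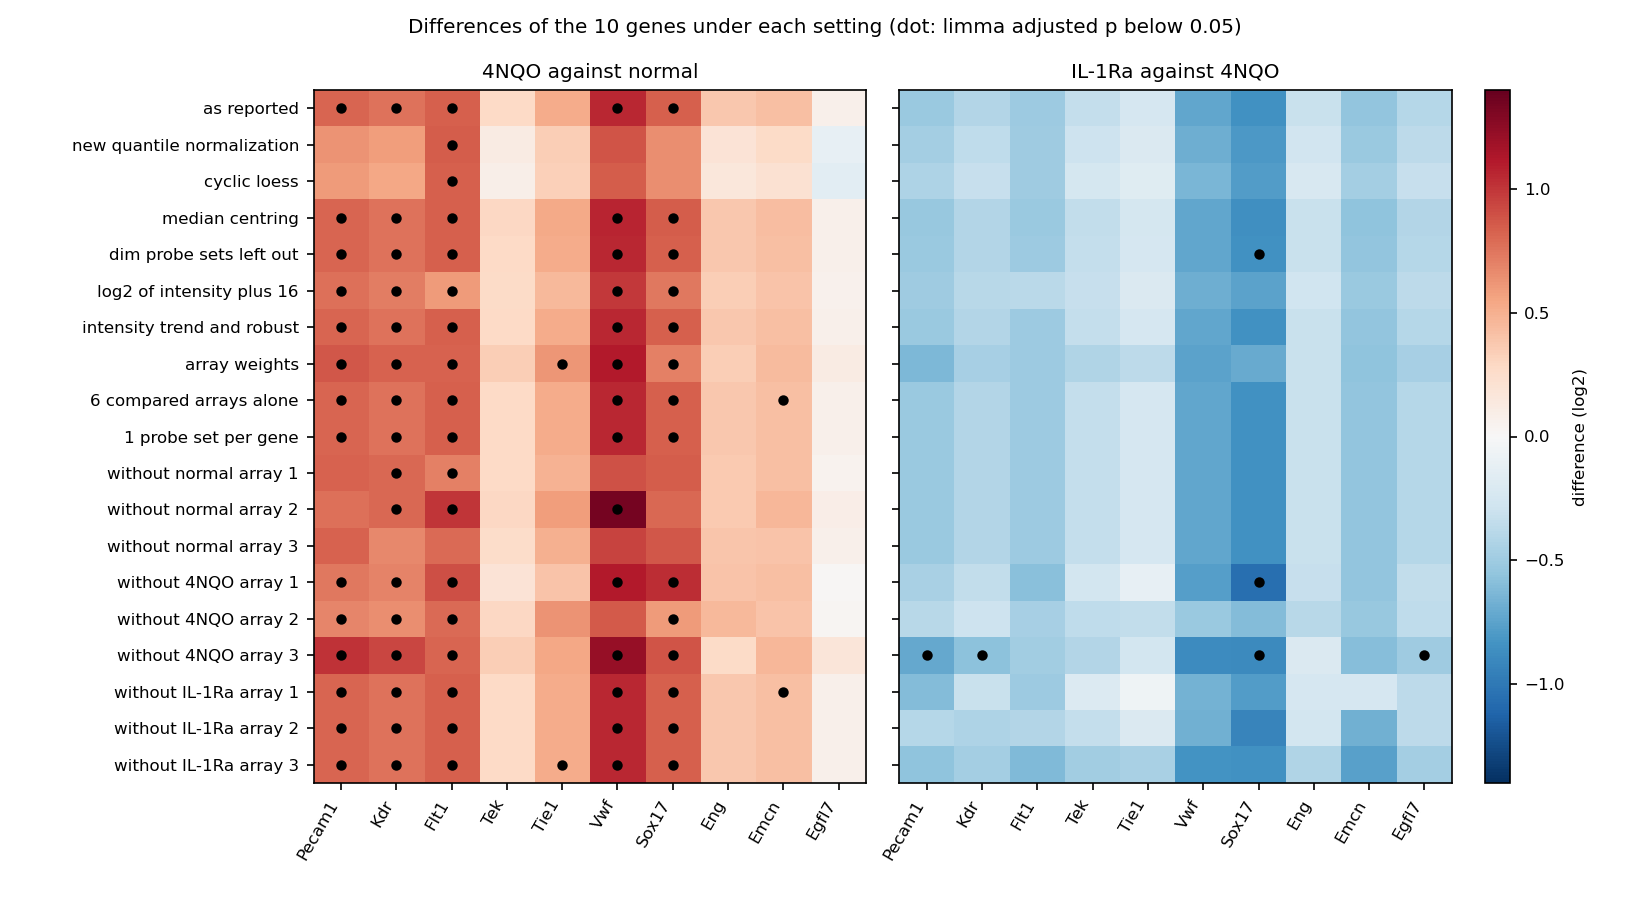
Difference in log2 intensity (colour, red higher and blue lower) of each of the 10 genes under each processing setting, for 4NQO against normal and IL-1Ra against 4NQO. A dot marks a limma adjusted p below 0.05. The dots of 4NQO against normal thin out after rescaling and without normal arrays while the colours stay red except for Egfl7, which is blue after both rescalings, and the dots of IL-1Ra against 4NQO appear mostly without 4NQO array 3.

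Arrays of 1 group did not order the genes alike. Of the 4NQO arrays, array 2 was the highest for 6 of the 10 genes (Pecam1, Kdr, Flt1, Vwf, Sox17 and Emcn) and array 3 the lowest for 6 (Pecam1, Kdr, Tek, Vwf, Emcn and Egfl7). Array 3 was nevertheless the highest of its group for Eng. Of the IL-1Ra arrays, array 3 was the highest for 8 genes and array 1 the lowest for 7. The median SD of the 10 genes was 0.07 log2 within the normal group, 0.21 within 4NQO and 0.21 within IL-1Ra, beside 0.11, 0.20 and 0.14 over all genes.

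With the mean of the 10 genes, each standardised over the 9 arrays, the members correlated from 0.60 (Egfl7) to 0.89 (Vwf) over the 9 arrays, each being part of that mean. The 5 other genes with the highest Pearson correlation to it were Ptcd3 (0.98), Mau2 (0.97), Osbpl6 (0.97), Ipp (0.96) and Ctnnal1 (0.96), and none of them was on a list used here. Ptcd3 encodes a mitochondrial ribosome protein and Mau2 a factor that loads cohesin on chromatin. Ptcd3 measured 8.51, 8.60 and 8.46 log2 on the normal arrays, 9.07, 9.04 and 8.93 on the 4NQO arrays and 8.44, 8.51 and 8.67 on the IL-1Ra arrays. These correlations include the difference between the groups, and the points share their array and its scaling.

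With all 9 arrays in the fit, no ligand of the VEGF receptors was called. Of 8 VEGF ligands, co-receptors and the lymphatic receptor Flt4, 0 were called in 4NQO against normal, 0 in IL-1Ra against 4NQO and 0 in IL-1Ra against normal, and 1, 1 and 0 had an unadjusted p under 0.05. Vegfa, the main ligand of KDR, read 8.49, 8.28 and 8.16 log2 in normal tongue, 8.21, 8.47 and 8.11 in 4NQO and 7.87, 8.28 and 8.14 with IL-1Ra. The groups overlapped, and 4NQO differed from normal by -0.05 log2 (-0.38 to 0.28, limma adjusted p = 0.830). The differences of 4NQO from normal were 0.06 for Vegfb, which binds FLT1, 0.31 for Vegfc and -0.45 for Vegfd, ligands of FLT4, -0.26 for Pgf, a second FLT1 ligand, and -0.14 for Flt4. Those of the neuropilins, co-receptors of VEGF, were 0.15 for Nrp1 and -0.39 for Nrp2. In this list Vegfd had the lowest adjusted p, 0.0775 by limma. In 1 of 18 other settings, that without 4NQO array 3, a gene of this list was called in 4NQO against normal, Pgf, which was lower.

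Of the angiopoietins and the phosphatase Ptprb, which removes phosphate from TEK, 1 of 4 was called lower and 0 higher in 4NQO, and 0 in the other comparisons, where 0 (IL-1Ra against 4NQO) and 2 (IL-1Ra against normal) had an unadjusted p under 0.05. Over all genes, 5.08% were called lower and 12.4% higher in 4NQO than in normal tongue. Angpt1, the activating ligand of TEK, was at -0.37 log2 (limma adjusted p = 0.0291), but it was below the lower quartile on 8 of 9 arrays and its call was lost in 9 of 18 other settings, among them both rescalings and the fits that left out any of the normal arrays or 4NQO array 1 or 2. Angpt2, which endothelial cells release and which counters ANGPT1, had 5.54, 5.58 and 5.22 on the normal arrays, 6.54, 6.22 and 5.90 on the 4NQO arrays and 5.53, 5.97 and 6.50 with IL-1Ra. Its 4NQO arrays lay above all normal arrays, at 0.77 log2 (0.24 to 1.31, limma adjusted p = 0.0568), and its IL-1Ra arrays spanned both groups. Angpt2 was called higher in 4NQO in 4 other settings, with array weights and without 4NQO array 3, IL-1Ra array 1 or IL-1Ra array 3, which brought the calls of this list to 2. In IL-1Ra against normal, Angpt1 was called lower in 3 other settings, with array weights, with the 6 compared arrays alone and without 4NQO array 3. Angpt4 was at -0.35 and Ptprb at 0.30 log2 in 4NQO against normal, and neither was called.

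Other genes of blood endothelium were examined for the same comparisons. Of 19 measured, 4 were higher and 0 lower in 4NQO than in normal tongue, with a median of 0.39 log2, beside 12.4% higher, 5.08% lower and a median of 0.08 log2 over all genes. They were Mmrn2, a matrix protein of the vessel wall (0.77, limma adjusted p = 0.00967), S1pr1, the sphingosine 1-phosphate receptor that tightens junctions (0.58, adjusted p = 0.0131), Rasip1, an effector of vessel lumen formation (0.54, adjusted p = 0.0158), and Plvap, the protein of fenestral diaphragms (0.95, adjusted p = 0.0176). Of the 19 estimates 16 were above 0 and 3 below, the lowest at -0.42 log2. The 4NQO arrays lay above every normal array for 6 of the 19 genes, against 26.5% of all genes. Mmrn2 was called in 18 of 18 other settings and S1pr1 in 17, the exception being the fit without normal array 2. Rasip1 and Plvap were each called in 14, both being lost under cyclic loess and without normal array 1 or 3, Rasip1 also under quantile scaling and Plvap also without normal array 2. With IL-1Ra, Rasip1 was called lower than in 4NQO (-0.52, limma adjusted p = 0.0474), a call made in 6 of 18 other settings and in 1 of the 9 that left out an array, that without 4NQO array 3, where 4 of the 19 genes were called. Clec14a, a C-type lectin of endothelium, was called lower with IL-1Ra than in normal tongue (-0.66, limma adjusted p = 0.0440), and in 10 of 18 other settings, the call being lost when any 1 of the normal or IL-1Ra arrays or 4NQO array 1 was left out. Its estimate was below normal tongue in 4NQO as well (-0.23, limma adjusted p = 0.241). The summed intensity of the 19 genes ran from 3869 to 4183 on normal arrays, 4765 to 5440 on 4NQO arrays and 3896 to 4690 on IL-1Ra arrays, and that of the 10 genes from 1745 to 1931, 2361 to 2966 and 1693 to 2236.

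Lists of 4 pathways that act in or on endothelium beside these receptors were examined next. In each, 1 or 2 genes were called higher in 4NQO, where 12.4% of all genes were. Median differences were 0.43 log2 for Notch, 0.22 for ALK1 and BMP9, -0.06 for flow and 0.26 for low oxygen, beside 0.08 over all genes. In that order 7 of 10, 7 of 10, 3 of 7 and 8 of 9 estimates were above 0, against 58.0% of all genes. All 4NQO arrays lay above all normal arrays for 3, 4, 1 and 5 genes, against 26.5% of all genes. No list was tested as a set. Of 10 genes of Notch signalling and endothelial tip cells, 2 rose in 4NQO, the ligand Jag2 (0.72 log2, limma adjusted p = 0.0106) and the receptor Notch1 (0.74, adjusted p = 0.0208), both of which epithelium also expresses. Of 10 genes around ALK1 and BMP9, the partners of endoglin, 2 rose, the receptors Acvrl1 (0.60, limma adjusted p = 0.0268) and Bmpr2 (0.59, adjusted p = 0.0377). Of 7 genes of flow response and haemostasis, 1 rose, the transcription factor Klf2 (1.08, limma adjusted p = 0.0248), which blood flow induces in endothelium. Jag2 kept its call in 17 of 18 other settings, the exception being without normal array 3, whereas Notch1 kept it in 13, Acvrl1 in 12, Klf2 in 12 and Bmpr2 in 10, none of these under cyclic loess. Each of Notch1, Acvrl1 and Klf2 lost it without any 1 of the normal arrays, and Bmpr2 without normal array 2 or 3. Further losses were those of Acvrl1 and Klf2 without 4NQO array 1, of Klf2 without 4NQO array 3, and of Bmpr2 without 4NQO array 1 or 3 or IL-1Ra array 2. Of 9 genes that respond to low oxygen, 1 rose, the glucose transporter Slc2a1 (1.72 log2, limma adjusted p = 0.00627, called in 18 of 18 other settings), and it was also called higher with IL-1Ra than in normal tongue (1.33, adjusted p = 0.0440), in 9 of 18. The count of this list in 4NQO against normal rose to 3 without 4NQO array 2 (Adm higher and Bnip3 lower, beside Slc2a1) and with array weights (Ndrg1 and Egln1 higher), and to 2 in 3 other settings, among them without 4NQO array 3 (Egln1 higher). The second call of Slc2a1 was lost under both rescalings and on leaving out any normal array, any IL-1Ra array or 4NQO array 1. In IL-1Ra against normal the count of the low oxygen list was 2 without 4NQO array 2 (Adm higher) or 3 (Bnip3 lower) and 3 with the 6 compared arrays alone, and Notch1 was called higher in 3 other settings. In IL-1Ra against 4NQO 0 genes of these 4 lists were called, with unadjusted p under 0.05 for 2, 2, 3 and 0 in the order of the lists here. Without 4NQO array 3 there was 1, Klf4, which epithelium also expresses and which was called higher, where 4.91% of all genes were. With all arrays in the fit, the estimates of Klf4 and Klf2 had opposite signs, 1.08 and -0.83 log2.

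**Figure D4:**
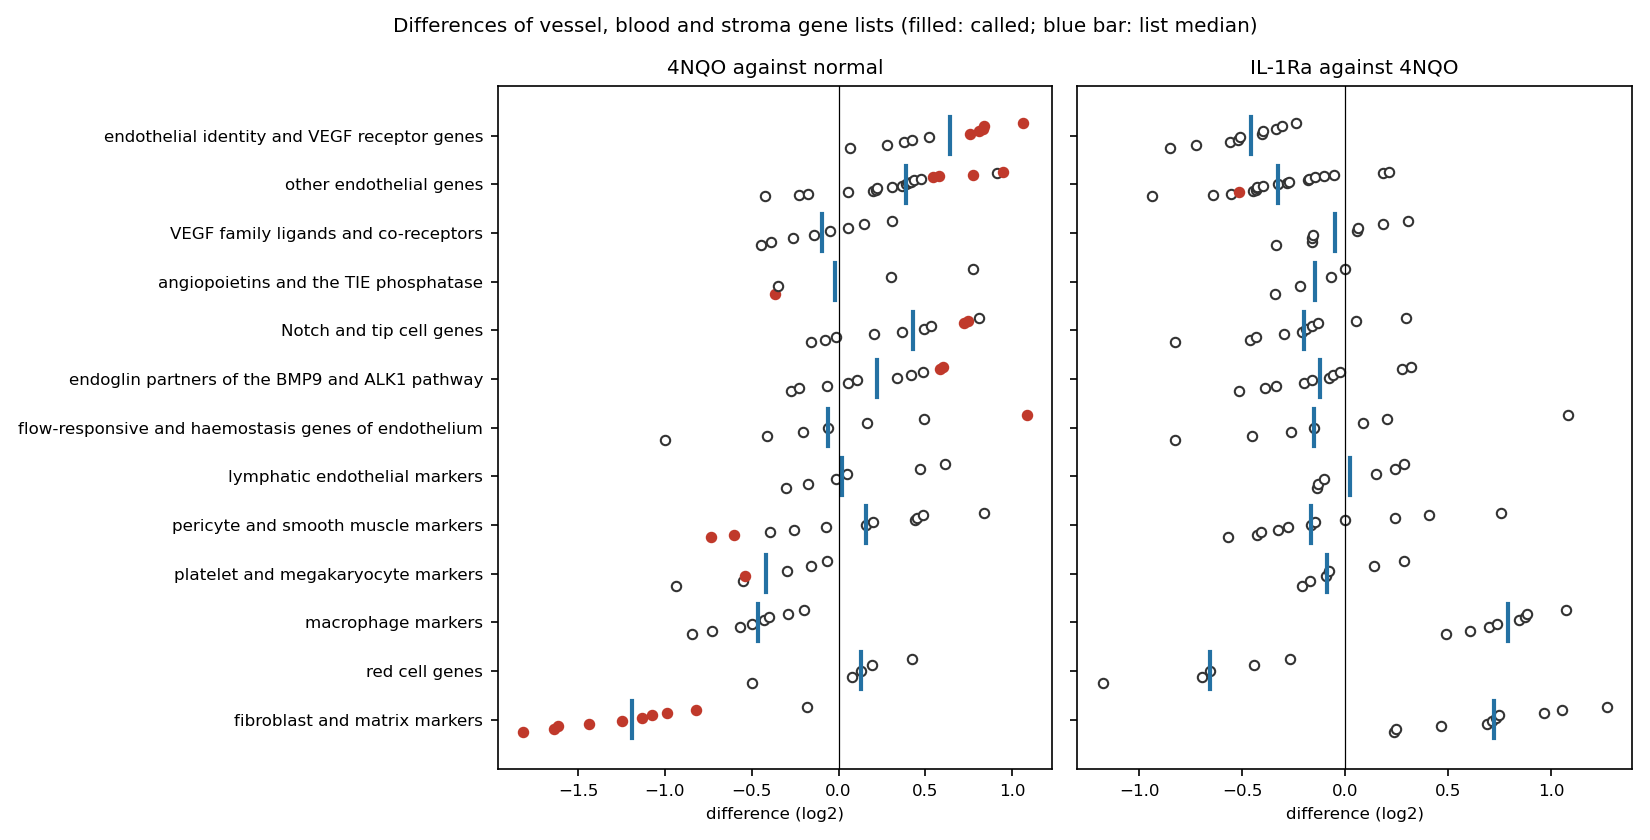
Differences in log2 intensity (horizontal axis) of single genes in 13 gene lists, for 4NQO against normal and IL-1Ra against 4NQO, with the list median as a blue bar. Filled points are limma calls. The median of the endothelial identity genes is 0.64 and -0.46, that of the other endothelial genes 0.39 and -0.33, and that of the fibroblast and matrix markers -1.19 and 0.72.

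Markers of other cells of the vessel and of blood gave 3 calls in 4NQO, and all were lower. Of 6 lymphatic endothelial markers 0 were called in any of the 3 comparisons, and 0 had an unadjusted limma p under 0.05. Of 11 pericyte and smooth muscle markers, 2 fell in 4NQO, Rgs5, a pericyte regulator of G protein signalling (-0.73 log2, limma adjusted p = 0.0375), and the receptor Notch3 (-0.60, adjusted p = 0.0428). The summed intensity of the 11 was 6121 to 6856 on normal arrays, 5107 to 8332 on 4NQO arrays and 5611 to 6654 on IL-1Ra arrays. Des, which skeletal muscle fibres also express, was the brightest of them (mean 11.73 log2 in normal tongue), so the sum does not read vessel cells alone. The list as a whole did not go 1 way, since 6 of the 11 estimates were above 0 and 5 below. They ran from -0.73 to 0.84 log2 with a median of 0.16, and 5.08% of all genes were called lower. Rgs5 was called in 13 of 18 other settings and Notch3 in 8. Both lost the call when any 1 of the normal arrays was left out, Rgs5 also without 4NQO array 2 and Notch3 also without 4NQO array 1 or 3 or IL-1Ra array 1 or 2. Of 6 platelet genes, which matter here because platelets carry PECAM1 and VWF, 0 rose and 1 fell in 4NQO, Treml1 (-0.54, limma adjusted p = 0.0295, lost without normal array 2 or 3 and without 4NQO array 1 or 3), and all 6 estimates were below 0. Treml1 was also called lower with IL-1Ra than in normal tongue in 6 of 18 other settings. Of 5 red cell genes and 8 macrophage genes 0 were called in any comparison with all 9 arrays, where 0 red cell genes and at most 2 macrophage genes had an unadjusted limma p under 0.05. The macrophage estimates were all below 0 in 4NQO against normal (median -0.47 log2) and all above 0 in IL-1Ra against 4NQO (median 0.79). Without 4NQO array 1, 5 of the 8 macrophage genes were called lower in 4NQO than in normal tongue, Cd68, Csf1r, Mrc1, C1qa and C1qb, and 3 higher with IL-1Ra than in 4NQO, Cd68, Adgre1 and C1qc. In that order, 4.4% and 1.77% of all genes were called. After quantile scaling Cd68 was called lower in 4NQO. Without 4NQO array 3, 1 red cell gene was called higher in 4NQO (Alas2) and 2 lower with IL-1Ra than in 4NQO (Alas2 and Ahsp), and with the 6 compared arrays alone 2 were lower with IL-1Ra than in normal tongue (Hbb and Hemgn). Red cell intensity summed to 4624 to 6789 on normal arrays, 1533 to 9482 on 4NQO arrays and 2599 to 3852 on IL-1Ra arrays, and macrophage intensity to 1215 to 2052, 669.5 to 2171 and 1474 to 2422.

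Markers of stroma and epithelium also differed between the groups. Over all genes, 12.4% were called higher and 5.08% lower in 4NQO than in normal tongue. In IL-1Ra against 4NQO, 1.91% were called higher and 0.753% lower. Of 10 fibroblast and matrix markers, 9 fell in 4NQO, with a median of -1.19 log2, among them Fap (-0.82, limma adjusted p = 0.0111), Sparc (-0.99, adjusted p = 0.0129), Lum (-1.13, adjusted p = 0.0185) and Mfap5 (-1.25, adjusted p = 0.0192). Their summed intensity was 22010 to 25680 on normal arrays, 5744 to 16200 on 4NQO arrays and 14750 to 18850 on IL-1Ra arrays. Without normal array 1, 2 or 3 the number that fell was 3, 2 or 1 of the 10, where 1.8%, 1.7% or 0.851% of all genes were called lower. Fap held its call whichever array was left out, Sparc lost it without normal array 3, Mfap5 without normal array 2 or 3 and Lum when any 1 of the normal arrays was left out. Of 6 basal keratinocyte markers 3 rose, Itgb4 (1.25, limma adjusted p = 0.00475), Col17a1 (1.49, adjusted p = 0.00930) and Itga6 (0.63, adjusted p = 0.0481), and their summed intensity was 7748 to 13350, 14140 to 26440 and 15180 to 19390 in the same order of groups. The calls of Itgb4 and Col17a1 held whichever array was left out, and that of Itga6 was lost under both rescalings and on leaving out any array except 4NQO array 2. Of 9 cornified keratinocyte markers 2 fell in 4NQO (Ivl and Sprr1a, called in 17 and 6 of 18 other settings). With IL-1Ra relative to 4NQO, 1 rose (Ivl, called in 14 of 18). All 9 estimates were below 0 in 4NQO against normal (median -0.87 log2) and above 0 in IL-1Ra against 4NQO (median 1.41). In the latter, every IL-1Ra array lay above every 4NQO array for all 9, against 9.31% of all genes. All 9 also had an unadjusted limma p under 0.05, against 21.7%. Their sums were 53400 to 58140, 24540 to 46320 and 61170 to 63030. Of 11 skeletal muscle markers 0 were called in 4NQO against normal and 2 were lower with IL-1Ra than in 4NQO (Tnnt1 and Ttn, called in 4 and 6 of 18 other settings), with sums of 50300 to 56770, 47850 to 60560 and 43210 to 48320. Without 4NQO array 3, 7 cornified markers were called higher and 4 muscle markers lower with IL-1Ra than in 4NQO, and 6 cornified markers lower in 4NQO than in normal tongue. In that order, 4.91%, 4.43% and 4.71% of all genes were called. The muscle calls numbered 0 on leaving out any normal or IL-1Ra array or 4NQO array 2, and the cornified calls numbered 0 in 4NQO against normal without normal array 3 and in IL-1Ra against 4NQO without any given IL-1Ra array. Without 4NQO array 1, 4 fibroblast markers were called higher with IL-1Ra than in 4NQO, where 1.77% of all genes were. In IL-1Ra against normal 0 genes of these 4 lists were called, although up to 3 basal keratinocyte markers were called higher in 9 of 18 other settings, up to 3 fibroblast markers lower in 4 and up to 2 muscle markers lower in 3. None of the markers of these lists was below the lower quartile on all arrays. The part of these differences in the endothelial result was not tested.

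RNA quality controls differed between the groups, not all in the same way. For beta-actin, the 3′ control probe set exceeded the 5′ one by a log2 value of 0.80 ± 0.06 in normal tongue, 1.20 ± 0.11 in 4NQO and 1.13 ± 0.15 with IL-1Ra (SD, n = 3, exact two-sided permutation p = 0.1 for each treated group against normal, the smallest that 3 arrays against 3 allow). For GAPDH this value was 0.27 ± 0.03, 0.35 ± 0.07 and 0.27 ± 0.01, with 4NQO above both other groups on every array. For hexokinase it was 1.501 ± 0.028, 1.496 ± 0.256 and 1.983 ± 0.199, with the 4NQO arrays on both sides of the normal arrays (exact two-sided permutation p = 1, n = 3) and the IL-1Ra arrays above all others. The upper quartile of log2 intensity was 7.04 to 7.08 on normal arrays and 7.16 to 7.28 on the others, and the difference of 4NQO from normal for the median of all genes was 0.02 after quantile scaling in place of 0.08. The part of RNA quality in the endothelial result was not tested.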

How the data were processed

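Biotin-labelled RNA of each tongue sample was hybridised to its own Affymetrix rat array. Expression Console and RMA are the tools in the submitters' processing notes, whose versions the sources do not give. The authors deposited 1 linear intensity for each probe set on each array, and log2 was taken before any test. RMA brings the arrays to a similar distribution, which can hide a change shared by most genes. Of 31099 probe sets, 57 controls were left out, and 20826 had 1 gene symbol in the platform annotation, 436 several and 9780 none. Groups came from the treatment labels.

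A model with 3 group means was fitted by limma (version 3.58.1, R 4.3.3) to all 9 arrays (6 residual and 4.01 prior degrees of freedom), with two-sided tests and Benjamini-Hochberg adjustment over all probe sets of a comparison at 0.05. The procedure was tested on simulated data. Arrays correlated at 0.967 to 0.995, and 0 pairs were identical. The number of arrays limits the precision. The genes described and the lists were chosen with earlier results of these data known, and lists were given counts and medians with no set test. Named were all 10 genes and their probe sets, the called genes of each list up to 4, every gene of the VEGF and angiopoietin lists, and the 5 genes most like the mean of the 10. Of the lists, 150 of 168 genes were measured, and the Schwann cell list had 0 calls and the adipocyte list 1, Fabp4, lower with IL-1Ra than in normal tongue, while without 4NQO array 3 each had 1 gene lower with IL-1Ra than in 4NQO (Prx and Fabp4). Genes named as called only under another setting were chosen after their values were seen. Motifs were searched in RefSeq promoters (GRCr8). Alternatives were other scalings, a filter on dim probe sets, another log offset, other variance models, other choices of arrays and probe sets, the methods' t-test and leaving out each array in turn. That t-test is named in the methods for the study's data in general, and no test between groups is named there for the arrays. Figures were drawn with matplotlib 3.10.9.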

Additional observations from a re-analysis of the deposited data

How the results depend on the processing

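Of the 10 endothelial genes, limma called 5 in 4NQO against normal, where 12.4% of all genes were called higher. It called 1 (Flt1) after a new quantile normalization and 1 (Flt1) after cyclic loess, and 3 (Pecam1, Flt1 and Vwf) when the probe sets of a gene were averaged. In the order of these settings, 5.24%, 3.97% and 11.9% of all genes were called higher. The methods' t-test called 0 after Benjamini-Hochberg adjustment, when it called 1 probe set in all, and 1 (Vwf) at an unadjusted p of 0.05 with a fold of 2, where 0.83% of all genes were higher. With a fold of 1.5 its count stayed within a factor of 1.5 of the 5 called by limma, where 5.91% of all genes were higher. Leaving out 1 array gave 0 (without normal array 3) to 6 calls. The share of all genes called higher then ran from 2.35% (without normal array 3) to 11.8% (without 4NQO array 3). In IL-1Ra against 4NQO, where 0 were called, there was 1 (Sox17) without the dimmest probe sets, 1 (Flt1) with probe sets averaged and 2 (Vwf and Sox17) by the methods' t-test with a fold of 1.5, and 0 to 4 with 1 array left out, the most without 4NQO array 3. In the order of these settings, 1.38%, 0.654%, 1.02% and, without 4NQO array 3, 4.43% of all genes were called lower. In IL-1Ra against normal there was 1 (Egfl7) with array weights, and 0 whichever array was left out. Array weights raised the probe sets called in that comparison from 581 to 3556, with 3.73% of all genes lower in place of 0.542%. In 4NQO against normal the direction turned for Egfl7 after quantile scaling (-0.11) and loess (-0.15) and for the dim Kdr probe set 1397868_at (0.041 and 0.030). In IL-1Ra against normal it turned for Eng after quantile scaling (-0.082) and loess (-0.069) and for Sox17 with array weights (0.00069). With 1 array left out, that comparison ran from -0.092 to 0.060 for Sox17, -0.057 to 0.067 for its probe set 1378935_at, -0.20 to 0.085 for Tek, -0.34 to 0.19 for Emcn and -0.051 to 0.14 for Eng. No direction of the 10 genes turned in IL-1Ra against 4NQO under the settings tried. Over all genes, quantile scaling reduced the probe sets called in 4NQO against normal from 4610, of which 63.4% were higher, to 2821, of which 51.9% were, and loess to 2480, of which 47.7% were. The cause of these changes was not tested.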
